A study of Mus musculus with 15 samples.

Results

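Messenger RNAs of the cytosolic ribosomal proteins were followed in whole lung. A gene was taken in when its platform symbol starts with Rpl or Rps followed by a digit or by a, or is Rplp0, Rplp1, Rplp2 or Rpsa. Symbols of the S6 kinases (Rps6k) and pseudogene symbols holding -ps were left out. The array carries 84 probes for 66 such genes. Of these genes 58 had a probe that passed the detection filter, meaning a detection p-value under 0.05 on at least 3 of the 15 arrays, and the brightest such probe stands for the gene. They are 35 proteins of the large (60S) subunit, 22 of the small (40S) subunit and Rps19bp1, which the naming rule takes in although its product is a partner of Rps19 and not a ribosomal protein. In all, 14396 probes naming 10194 genes passed the same filter, out of 25697 probes. The filter was passed by no probe of Rpl14, Rpl17, Rpl39l, Rpl6, Rplp2, Rps23, Rps23rg1 and Rpsa, each detected on at most 1 array. Rps23rg1 is a retrogene. Of the genes singled out by name, Rpl11, Rpl7 and Rps4l were not matched to a probe.

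The lungs came from C57BL/6 mice aged 22 weeks, with 1 array per mouse on Illumina beadchips. Which arrays, if any, shared a chip was not examined. The 4 groups were homozygous mutants challenged with ovalbumin (OVA, a protein of hen's egg that serves as a model allergen; n = 4), wild types challenged with OVA (n = 4), unchallenged homozygous mutants (n = 3) and unchallenged wild types (n = 4). Ifit2, an interferon-induced gene, is named in the title, the labels give the mutants as homozygotes without naming the allele, and the design text calls the mutants male; neither the dose and schedule of OVA nor how the mutation was made is given in the sources used here. Both probes for Ifit2 were detected on 0 of 7 mutant arrays and on 8 of 8 wild-type arrays.

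A ribosome reads messenger RNA into protein, and each of its subunits is ribosomal RNA wrapped in a set of small basic proteins. The proteins are needed in nearly equal numbers. Their mRNAs share a tract of pyrimidines (C and T) at the capped end, through which the kinase mTOR and the binding protein Larp1 control how strongly they are translated, so the mRNA level and the protein output can move apart. Leukocytes that begin to divide make many new ribosomes, and some ribosomal proteins also act away from the ribosome, for example by holding the p53 inhibitor Mdm2.

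The lungs held the epithelial genes their label implies, with all 10 lung epithelium genes (surfactant proteins, Scgb1a1, Ager and others) detected on every array. Challenged arrays were dimmer. Mean signal over all probes was 417 ± 73.7 (SD, n = 4) in challenged mutants, 473 ± 34.2 (SD, n = 4) in challenged wild types, 637 ± 25.7 (SD, n = 3) in unchallenged mutants and 599 ± 70.1 (SD, n = 4) in unchallenged wild types. The dimmest array, challenged mutant 4, also had the lowest median correlation with the other arrays, 0.904. Genes of other tissues varied between single arrays. The mean of 9 exocrine pancreas genes (log2 intensity) was 14.10 in challenged mutant 2, 12.80 in challenged wild type 1, 11.59 in challenged wild type 2 and 10.03 in challenged mutant 1, against 5.34 to 6.15 on the other 11 arrays. A list of 4 tested thymus genes averaged 10.33 in challenged mutant 1 and at most 7.82 elsewhere. Values below are log2 intensities after background correction and quantile normalization unless another scale is named, and an array is one mouse.

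Ribosomal protein probes were among the brightest on the array, taking 11 of the 50, 20 of the 100 and 36 of the 500 places with the highest mean raw signal. Brightness also depends on how well a probe binds, so it does not order the genes by mRNA amount. Summed over the 58 probes, members took 3.96 ± 0.23% of the raw signal in challenged mutants, 3.95 ± 0.12% in challenged wild types, 3.72 ± 0.06% in unchallenged mutants and 3.77 ± 0.13% in unchallenged wild types (SD, n = 4, 4, 3 and 4). The ranges of challenged and unchallenged mice overlapped in both genotypes, since challenged mutant 2 had 3.65% and challenged wild type 1 had 3.82%.

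With OVA challenge a few ribosomal protein mRNAs were called higher and a few lower, and the median of the set lay close to that of all probes. In mutants 11 of 58 members passed the threshold (limma, Benjamini-Hochberg adjusted p under 0.05 over all 14396 probes), which is 19% of members against 30.5% of all probes. Of these 9 rose (13.5% of all probes) and 2 fell (17% of all probes). In wild types 4 of 58 passed, 6.9% against 22.5% of all probes, with 1 higher (9.8% of all probes) and 3 lower (12.7% of all probes). Rps26 rose and Rps15a fell in both genotypes. Challenged arrays were also dimmer, and the split between higher and lower depended on the scaling. Median scaling over all probes gave 2 members higher and 25 lower in mutants, and 1 higher and 8 lower in wild types. Of all calls under that scaling 6.81% were higher in mutants and 10.8% in wild types. Challenged and unchallenged mice did not overlap for 14 of 58 members in mutants (38.1% of all probes) and for 10 in wild types (28.8% of all probes). The median log2 change of the members was 0.09 in mutants, where that of all probes was -0.02, and -0.04 in wild types, where that of all probes was -0.01. Changes spread less among members than among all probes: the middle 50% of members lay between -0.11 and 0.30 in mutants and between -0.15 and 0.15 in wild types, against -0.41 to 0.31 and -0.32 to 0.25 for all probes. Many members are bright probes, and neither these spreads nor the shares called were compared with those of equally bright probes.

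The counts rest on few mice. In mutants the count of 11 became 4 without unchallenged mutant 2, 5 without unchallenged mutant 3, 6 without unchallenged mutant 1, 6 without challenged mutant 4 and 7 without unchallenged wild type 4. In wild types the count of 4 became 2 without unchallenged wild type 2 or without unchallenged wild type 3. With mean signal of the array as a covariate, which overlaps with challenge, 1 member passed in each genotype, Rps15a in both. Without the 4 challenged arrays high in pancreas genes 13 members passed in mutants, 9 of them among the 11, and 3 in wild types, 2 of them among the 4. In bulk lung a change in a transcript per cell and a change in the mix of cells cannot be told apart: 10 leukocyte genes averaged 11.29 ± 0.24 in challenged mutants, 10.86 ± 0.24 in challenged wild types, 10.40 ± 0.59 in unchallenged mutants and 10.07 ± 0.14 in unchallenged wild types (SD). Their part in the changes below was not tested.

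**Figure D1:**
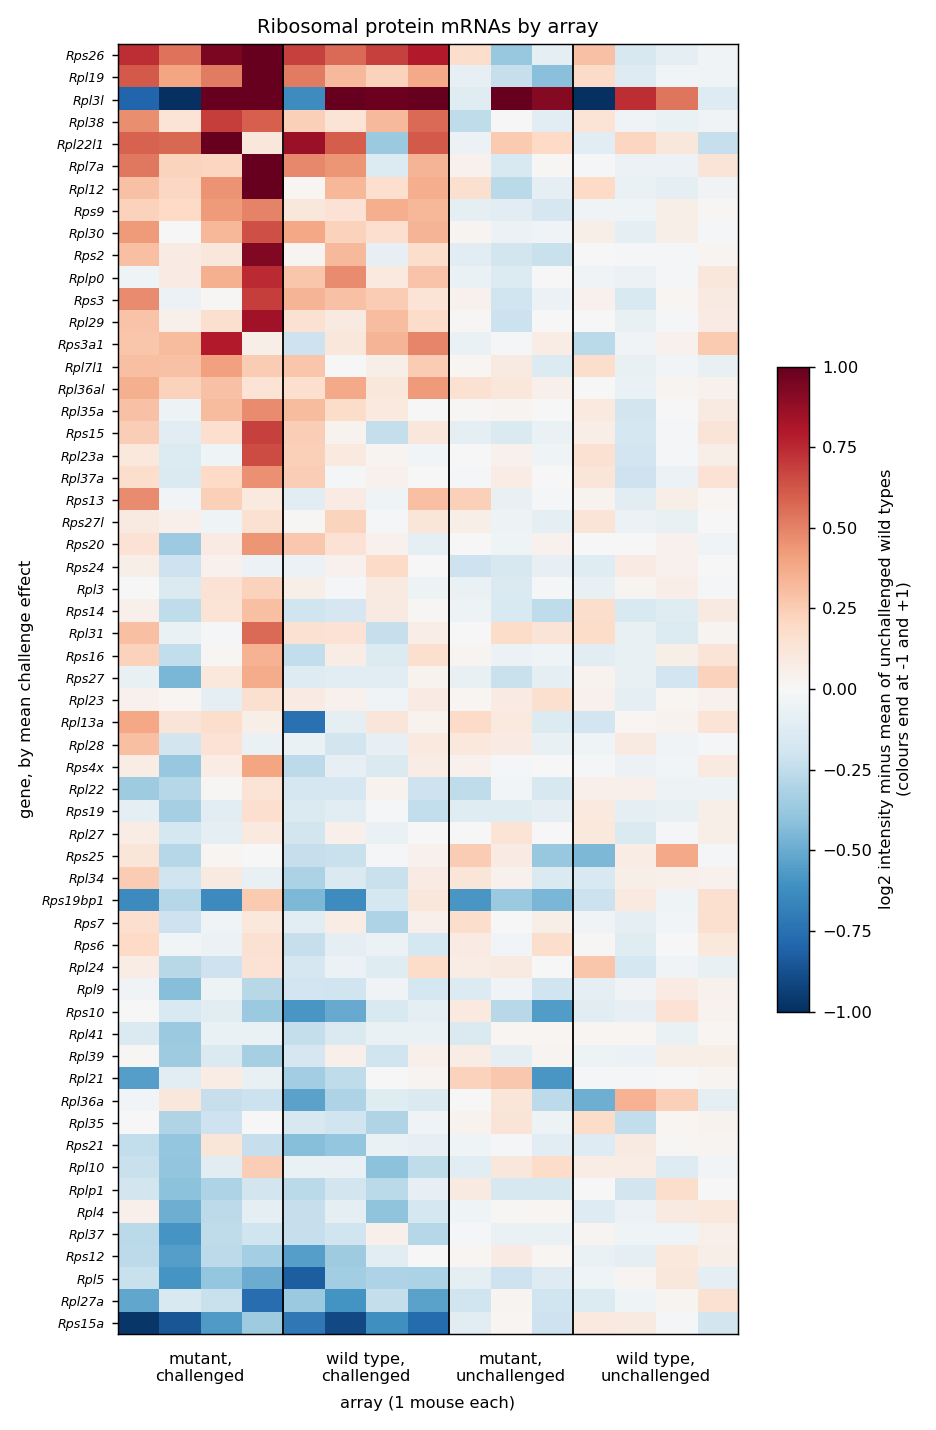
Log2 intensity of each of the 58 members (rows, ordered by mean challenge effect) on each of the 15 arrays (columns, by group), as the difference from the mean of unchallenged wild types, with colours ending at -1 and +1. Rps26 and Rpl19 at the top and Rps15a at the bottom shift in every challenged mouse, while most rows stay pale. The pale-to-blue column of challenged mutant 2 and the red column of challenged mutant 4 hold 30 and 11 members below, and 10 and 33 members above, the range of unchallenged wild types.

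Of the small-subunit proteins, Rps26, which lines the exit channel of the mRNA and is often mutated in Diamond-Blackfan anaemia, rose the most. It had 13.34, 13.15, 13.55 and 13.93 in challenged mutants, against 12.78, 12.23 and 12.51 in unchallenged mutants. Challenged wild types had 13.29, 13.17, 13.29 and 13.40, against 12.90, 12.45, 12.51 and 12.57 in unchallenged wild types. Every challenged mouse stood above every unchallenged mouse. The change was 0.99 ± 0.18 in mutants (1.98-fold; SE; limma adjusted p = 0.00169) and 0.68 ± 0.17 in wild types (1.60-fold; adjusted p = 0.0110). It ended as a call only with mean signal as a covariate, at 0.32 in each genotype.

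Rps9, whose counterparts in yeast and bacteria help set decoding accuracy, rose in mutants. It had 13.73, 13.70, 13.93 and 14.00 in challenged mutants, against 13.41, 13.39 and 13.33 in unchallenged mutants, a change of 0.46 ± 0.11 (1.38-fold; limma adjusted p = 0.00712). In wild types it had 13.61, 13.65, 13.86 and 13.83 with challenge, against 13.47, 13.46, 13.56 and 13.51 without, a change of 0.24 ± 0.10 (adjusted p = 0.108). The groups did not overlap in either genotype, although only the change in mutants passed. In mutants it was 0.76 with median scaling, and it did not pass with median scaling over all probes of the array (0.10) or with mean signal as a covariate (0.31).

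Rps2, a core protein near the channel where mRNA enters, had 13.27, 13.05, 13.08 and 13.90 in challenged mutants, against 12.85, 12.78 and 12.74 in unchallenged mutants (0.53 ± 0.17; limma adjusted p = 0.0321). Challenged mutant 4 lay far above the other challenged mutants, and without it the change was 0.34. The call was lost without unchallenged mutant 1, 2 or 3 (0.56, 0.53 and 0.51; limma adjusted p = 0.0632, 0.0930 and 0.0884), and with median scaling over all probes (0.07) or mean signal as a covariate (0.17). The change in wild types was 0.11 ± 0.16 (adjusted p = 0.496).

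Rps15a, which sits on the body of the small subunit, fell in both genotypes. It had 6.48, 6.59, 6.88 and 7.09 in challenged mutants, against 7.34, 7.47 and 7.24 in unchallenged mutants. Wild types had 6.74, 6.55, 6.84 and 6.68 with challenge, against 7.55, 7.54, 7.44 and 7.27 without. Again no challenged mouse overlapped an unchallenged one. The change was -0.59 ± 0.15 in mutants (SE; limma adjusted p = 0.00902) and -0.75 ± 0.14 in wild types (1.68-fold lower; adjusted p = 0.00209). Without unchallenged mutant 2 the change in mutants was -0.53 and just missed the threshold (limma adjusted p = 0.0507), and without the 4 arrays high in pancreas genes it was -0.36 (adjusted p = 0.0696). Its probe was dim, with raw signals of 198 to 375, and with no background correction the changes were -0.30 and -0.39, both still past the threshold. In mutants it was -1.18 with median scaling over all probes and -1.06 with mean signal as a covariate.

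Rps12, a beak protein that in flies takes part in cell competition, fell in mutants, with 13.78, 13.49, 13.78 and 13.70 in challenged mice against 14.07, 14.12 and 14.07 in unchallenged ones (-0.40 ± 0.13; limma adjusted p = 0.0387). In wild types it had 13.49, 13.69, 13.93 and 14.05 with challenge, against 13.98, 13.95, 14.15 and 14.10 without, so the groups overlapped (adjusted p = 0.159). The call in mutants was lost without any 1 of the unchallenged mutants, challenged mutant 2 or 4, or unchallenged wild type 4 (-0.41 to -0.33; limma adjusted p = 0.0506 to 0.120). It was also lost, at a smaller change, with median scaling (-0.07), cyclic loess (-0.19) and the pancreas level as a covariate (-0.23), while with median scaling over all probes the change was -0.73. RefSeq lists pseudogene symbols for many members, and such copies can share a probe's sequence. Among those called there are 23 for Rps12, 14 for Rpl7a, 12 each for Rpl19 and Rps2, 10 for Rpl30 and 8 for Rps15a.

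Of the large-subunit proteins, Rpl19, which takes part in a bridge between the subunits, rose in mutants. It had 11.14, 10.92, 11.04 and 11.92 in challenged mutants, against 10.44, 10.30 and 10.11 in unchallenged mutants, a change of 0.97 ± 0.20 (1.97-fold; limma adjusted p = 0.00281). Without challenged mutant 4, the highest array, the change was 0.75, and it did not pass with mean signal as a covariate (0.29) or with median scaling over all probes (0.30). In wild types it had 11.04, 10.85, 10.75 and 10.90 with challenge, against 10.71, 10.40, 10.50 and 10.49 without. These did not overlap, but the change of 0.36 ± 0.18 did not pass (adjusted p = 0.165).

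Rpl38, which in mice is needed for the translation of Hox mRNAs and for the normal pattern of the axial skeleton, had 14.76, 14.44, 14.99 and 14.90 in challenged mutants, against 14.05, 14.31 and 14.19 in unchallenged mutants (0.59 ± 0.14; limma adjusted p = 0.00808). Wild types had 14.54, 14.44, 14.63 and 14.86 with challenge, against 14.44, 14.27, 14.23 and 14.27 without (0.32 ± 0.13; adjusted p = 0.103). Only in mutants did all challenged mice stand above all unchallenged ones. The change in mutants was 1.02 with median scaling, 0.36 with median scaling over all probes and 0.38, not past the threshold, with mean signal as a covariate.

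Rpl12, a protein of the stalk base where elongation factors dock, had 12.60, 12.51, 12.75 and 13.36 in challenged mutants, against 12.46, 12.04 and 12.21 in unchallenged mutants (0.57 ± 0.18; limma adjusted p = 0.0315). Without challenged mutant 4 the change was 0.38 (limma adjusted p = 0.0593), without unchallenged mutant 2 or 3 it was 0.47 and 0.56 (adjusted p = 0.139 and 0.0807), with mean signal as a covariate it was -0.02, and with median scaling over all probes it was 0.0015. Rpl7a, Rpl30 and Rpl7l1 also passed in mutants, at 0.55 ± 0.20, 0.37 ± 0.13 and 0.32 ± 0.11, but only just (limma adjusted p = 0.0491, 0.0499 and 0.0465), and each missed it when most single arrays were left out, down to 0.36, 0.27 and 0.26. Rpl7l1 is a relative of Rpl7 known from ribosome assembly. Just outside the threshold, Rpl29 had an adjusted p of 0.0677 in mutants.

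Rpl5, which with Rpl11 and a small ribosomal RNA forms the particle that can hold Mdm2, fell in wild types. It had 13.05, 13.53, 13.57 and 13.56 in challenged wild types, against 13.83, 13.91, 14.00 and 13.78 in unchallenged wild types (-0.45 ± 0.13; 1.37-fold lower; limma adjusted p = 0.0222). The groups did not overlap in wild types, and challenged wild type 1 was the lowest. The call was lost without unchallenged wild type 2 or 3 (-0.44 and -0.41; limma adjusted p = 0.0576 and 0.0675). It was also lost, at a smaller change, with median scaling (-0.20), cyclic loess (-0.27), the pancreas level as a covariate (-0.34), mean signal as a covariate (-0.33) and without the arrays high in pancreas genes (-0.31). In mutants it had 13.66, 13.29, 13.49 and 13.39 with challenge, against 13.78, 13.67 and 13.75 without, also apart (-0.28 ± 0.14; adjusted p = 0.140).

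Rpl27a, a large-subunit protein, had 9.74, 9.50, 9.87 and 9.57 in challenged wild types, against 9.97, 10.06, 10.13 and 10.25 in unchallenged wild types (-0.44 ± 0.14; limma adjusted p = 0.0389). The call was lost without unchallenged wild type 2, 3 or 4 or challenged wild type 1, 2 or 4 (-0.46 to -0.38; adjusted p = 0.0519 to 0.107). It was lost too on the mean of its probes (-0.28), while with median scaling over all probes the change was -0.89. Its change in mutants was -0.29 ± 0.15 (adjusted p = 0.156). Just outside the threshold in wild types, Rpl36al had a log2 change of 0.27 ± 0.10 (adjusted p = 0.0670).

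**Figure D2:**
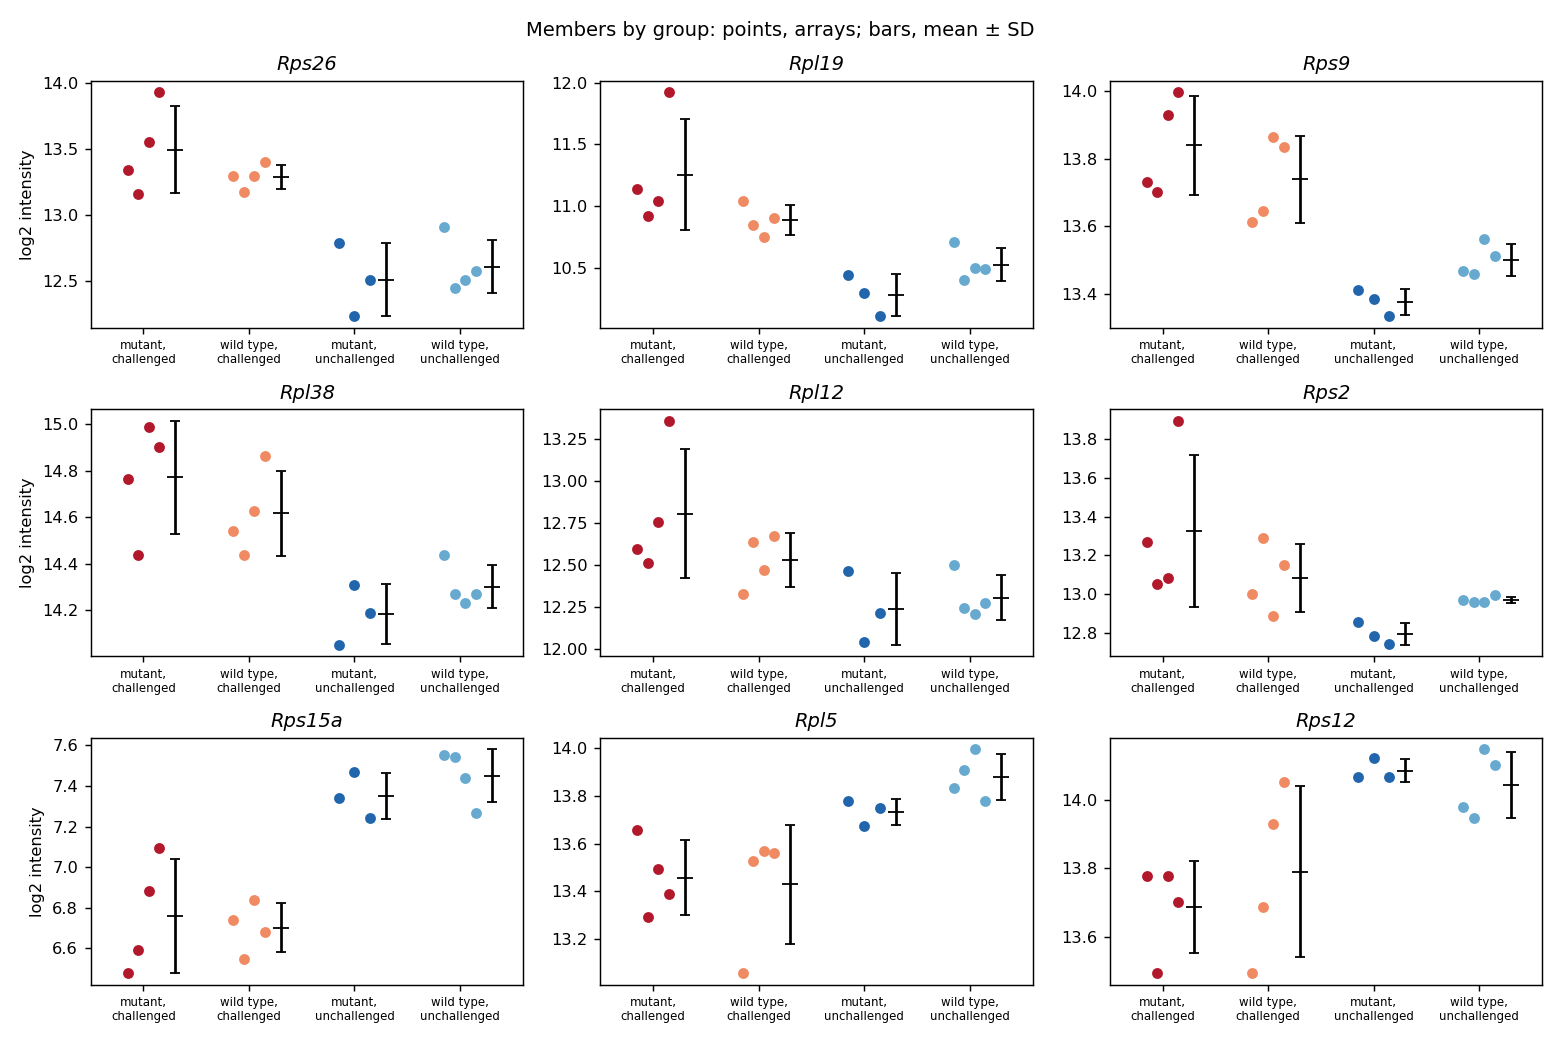
Log2 intensity of 9 members in the 4 groups, with a point per array and bars for the mean ± SD beside the points; each panel has its own axis, which does not start at 0. Rps26 and Rps9 of challenged mice lie above, and Rps15a and Rpl5 below, the unchallenged mice of the same genotype. Challenged mutant 4 is the highest point for Rps26, Rpl19, Rps9, Rpl12 and Rps2.

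**Figure D3:**
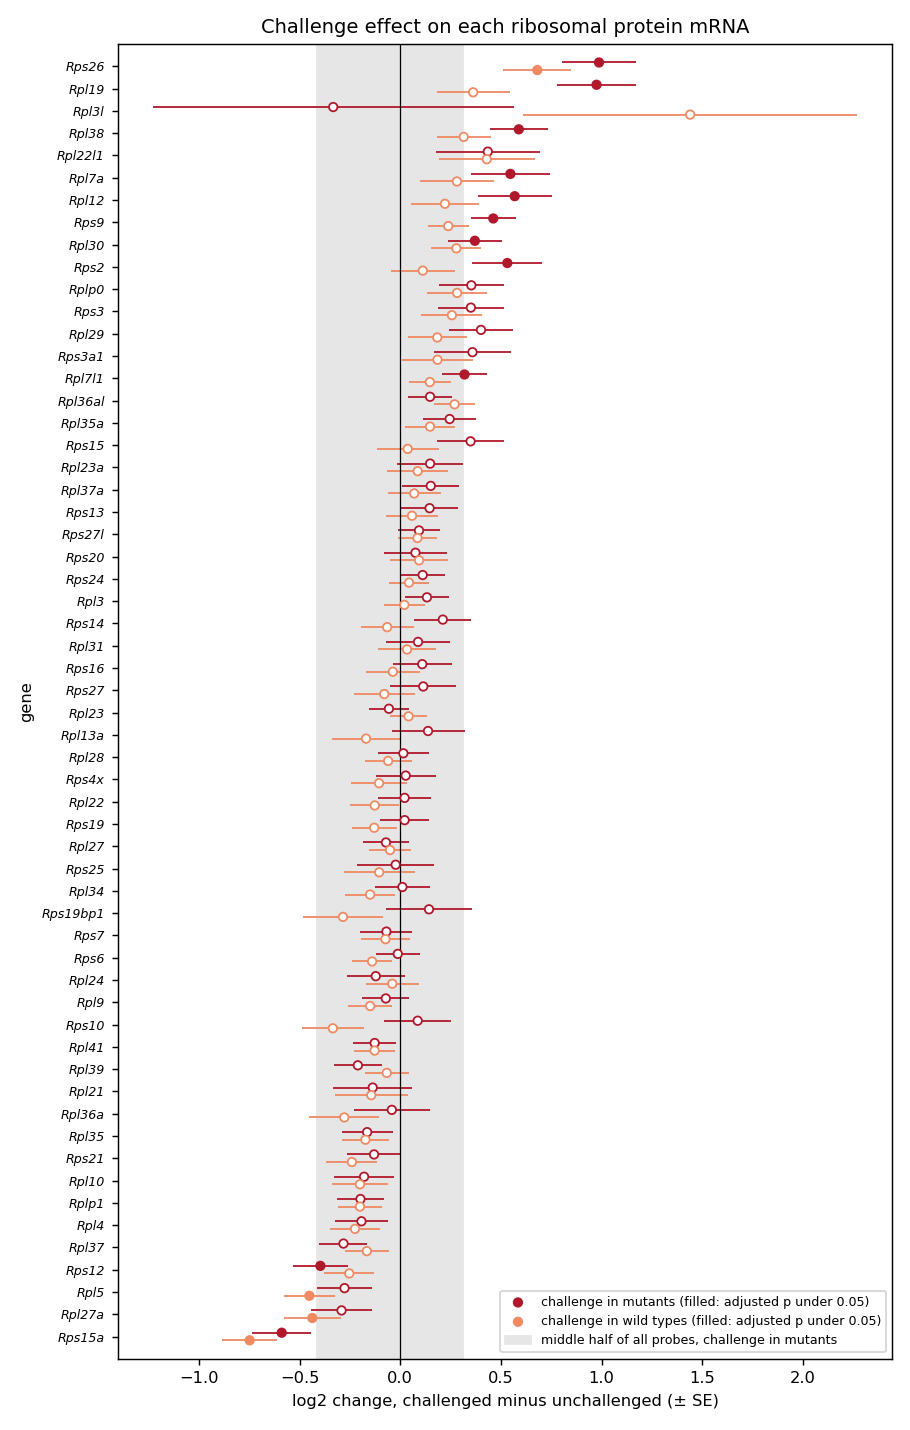
Log2 change with challenge (horizontal axis, ± SE) for each member in mutants and in wild types, filled where the adjusted p was under 0.05, with a grey band for the middle 50% of all probes in mutants (-0.41 to 0.31). The 11 filled points in mutants and 4 in wild types are marked; several open points, such as Rpl22l1 in mutants at 0.43, lie farther from 0 than some filled ones. Rpl3l, at 1.44 ± 0.83 in wild types, has by far the widest error.

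The mRNA starts of the members with the clearest changes are shown because the tract that governs translation of this family lies there. Of 58 members 50 have a promoter in the RefSeq table (build GRCm38.p6), with 61 listed starts. Each window below runs from 10 bases before the listed start to 20 bases from it, with the longest run of C and T in capitals.
Rps26 (chr10:128626487-128626516, minus strand): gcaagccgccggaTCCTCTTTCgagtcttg
Rps9 (chr7:3704031-3704060, plus strand): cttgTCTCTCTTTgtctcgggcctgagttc
Rpl38 (chr11:114668570-114668599, plus strand): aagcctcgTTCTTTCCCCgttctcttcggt
Rpl19, upstream start (chr11:98026700-98026729, plus strand): aaacgCCCTCactgcgcatgtgcgccgcgg
Rpl19, downstream start (chr11:98026914-98026943, plus strand): TCTCCCCTTCgcagataatgggcggagcct
Rpl12 (chr2:32961702-32961731, plus strand): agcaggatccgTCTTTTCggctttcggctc
Rps2 (chr17:24720053-24720082, plus strand): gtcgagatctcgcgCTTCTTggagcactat
Rps15a (chr7:118116128-118116157, minus strand): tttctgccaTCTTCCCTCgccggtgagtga
Rps12 (chr10:23787190-23787219, minus strand): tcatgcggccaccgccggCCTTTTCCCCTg
Rpl5 (chr5:107900518-107900547, plus strand): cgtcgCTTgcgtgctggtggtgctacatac
Rpl27a (chr7:109519185-109519214, plus strand): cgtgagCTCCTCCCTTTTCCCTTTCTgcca

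A run of at least 6 pyrimidines occurs in each window shown except that of Rpl5, whose longest is 3 bases, and the upstream one of Rpl19, whose longest is 5, and the run in Rpl27a is 20 bases. Not all lie at the listed start: the run in the downstream Rpl19 window ends before it, and those of Rps2 and Rps12 begin at bases 5 and 9. The counts that follow take a run of at least 6 anywhere in the window. Such a run was found at 49.2% of the members' starts and at 28.7% of the 32851 starts in the table. By gene it was found in 28 of 50 members (56%) and in 32.1% of all 27025 genes. Both directions of change hold it: 7 of the 8 members that rose in either genotype and have a promoter in the table, and 3 of the 4 that fell. The letters CCGGAAG, bound by Ets factors such as GABP, occurred on either strand, from 250 bases before to 50 after the start, at 31.1% of the members' starts and 8.86% of all starts. The core ATGGCG of YY1 sites occurred at 29.5% of the members' starts and 8.93% of all, and it can overlap a start codon. These are matches of letters only.

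Genotype alone changed no member past the threshold. Between unchallenged mutants and unchallenged wild types 0 of 58 members passed by limma, where 0.0139% of all probes did. At an unadjusted p under 0.05 there was 1 member, Rps19bp1 (-0.47 ± 0.21; limma adjusted p = 1.00), against 2.6% of all probes. The groups did not overlap for 4 members, 6.9% against 7.55% of all probes: Rpl36al was higher in mutants, and Rps19bp1, Rps2 and Rps9 were lower. The median member differed by -0.03, and that of all probes by -0.01.

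Between challenged mutants and challenged wild types 0 of 58 members passed by limma, where 0.174% of all probes did. The only member at an unadjusted p under 0.05, against 12.7% of all probes, was Rpl13a, which in human myeloid cells leaves the ribosome after interferon-gamma and joins a complex that silences inflammatory mRNAs. It averaged 9.12 ± 0.14 in challenged mutants and 8.76 ± 0.39 in challenged wild types (SD, n = 4 each), a difference of 0.36 ± 0.17 (limma adjusted p = 0.393). Rps6, the small-subunit protein that S6 kinases phosphorylate, was the 1 member whose groups did not overlap (4.16% of all probes), at 11.98 ± 0.13 in challenged mutants and 11.78 ± 0.08 in challenged wild types (adjusted p = 0.421). The median member differed by 0.07, against -0.01 for all probes. Of the members' differences 43 of 58 were positive, against 6872 of 14396 for all probes.

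The test of whether challenge acted differently in mutants and wild types passed for 0 of 58 members and for 0% of all probes by limma. The smallest p among members was that of Rpl19, whose change was larger in mutants by 0.61 ± 0.27 (limma adjusted p = 1.00). This was the 1 member at an unadjusted p under 0.05, against 4.1% of all probes. Next came Rps10 and Rps2 (each 0.42, SE 0.23 and 0.24), Rps9 (0.22 ± 0.15) and Rps19bp1 (0.43 ± 0.29). Of the 58 differences 49 were positive (7240 of 14396 for all probes), with a median of 0.10 against 0.00 for all probes. Members moved together within groups, so these are not 58 separate observations. The larger count of calls in mutants than in wild types thus does not show a difference between the genotypes. Both challenge comparisons and the interaction use the same mice.

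Several well-known members passed in no comparison. Rpl3, which helps shape the peptidyl transferase centre, averaged 13.81 ± 0.16 in challenged mutants, 13.77 ± 0.07 in challenged wild types, 13.67 ± 0.06 in unchallenged mutants and 13.75 ± 0.06 in unchallenged wild types (SD, n = 4, 4, 3 and 4). Its SD over 15 arrays, 0.10, was among the 3 smallest, with those of Rpl23 (0.08) and Rps27l (0.09). Rps19, the gene most often mutated in Diamond-Blackfan anaemia, had log2 changes with challenge of 0.02 ± 0.12 in mutants and -0.13 ± 0.11 in wild types. The acidic stalk proteins, which recruit elongation factors, did not pass either: the log2 change of Rplp1 was -0.20 ± 0.12 in mutants and -0.20 ± 0.11 in wild types, and that of Rplp0 was 0.35 ± 0.16 and 0.28 ± 0.15. Rpl41, the smallest protein of the set, had log2 changes of -0.13 in each genotype, with SEs of 0.11 and 0.10. Rps19bp1 and Rpl21, whose probes here were detected in 2 and 3 of 4 challenged mutants, were the dimmest of the 58 and lie near the floor of the scale.

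Several members come with a paralog of restricted or altered use. Rpl22l1, a relative of Rpl22 that replaces it in part in T cell development, had log2 changes with challenge of 0.43 ± 0.26 in mutants and 0.43 ± 0.24 in wild types (limma adjusted p = 0.209 and 0.212), whereas Rpl22 had 0.02 ± 0.13 and -0.13 ± 0.12. For Rpl36a they were -0.04 ± 0.19 and -0.28 ± 0.17, beside 0.15 ± 0.11 and 0.27 ± 0.10 for Rpl36al. For Rps27 they were 0.11 ± 0.16 and -0.08 ± 0.15, beside 0.09 ± 0.11 and 0.09 ± 0.10 for Rps27l, a p53 target. Rps4x and Rpl39, both on the X chromosome, had 0.03 ± 0.15 and -0.21 ± 0.12 in mutants and -0.11 ± 0.14 and -0.07 ± 0.11 in wild types. None of these changes passed the threshold.

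Rpl3l, the form of Rpl3 made in skeletal muscle and heart, varied more than any other member, with an SD of 1.31 over the 15 arrays. It had 7.65, 7.31, 9.72 and 10.81 in challenged mutants, 7.81, 11.01, 9.42 and 11.29 in challenged wild types, 8.32, 9.94 and 9.37 in unchallenged mutants and 7.29, 9.19, 8.98 and 8.32 in unchallenged wild types. The groups overlapped throughout, and no contrast passed (limma adjusted p = 0.796 for challenge in mutants and 0.227 in wild types). The mean of 10 skeletal muscle genes followed the same mice: 5.56, 5.32, 10.74 and 11.04 in challenged mutants, 5.33, 11.58, 10.41 and 11.48 in challenged wild types, 8.72, 10.75 and 10.20 in unchallenged mutants and 6.48, 9.93, 9.92 and 9.37 in unchallenged wild types. The 4 arrays lowest for the muscle list were also the 4 lowest for Rpl3l. Where the muscle RNA came from was not tested.

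**Figure D4:**
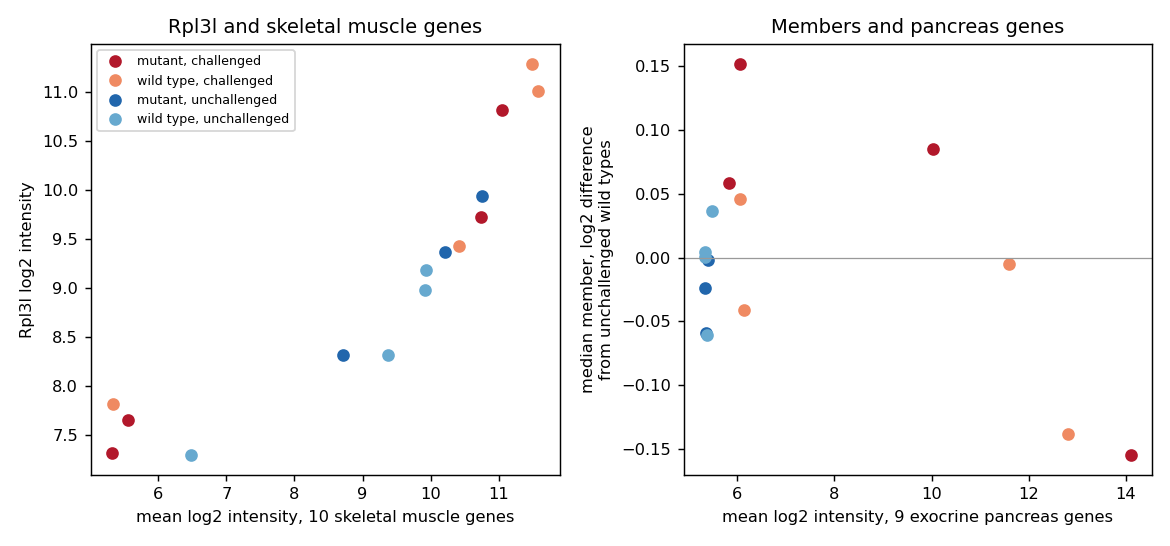
Left, Rpl3l log2 intensity against the mean log2 intensity of 10 skeletal muscle genes, with a point per array; arrays run from 7.29 to 11.29 for Rpl3l as the muscle list runs from 5.32 to 11.58. Right, the median log2 difference of the 58 members from unchallenged wild types against the mean of 9 exocrine pancreas genes. The arrays highest in pancreas genes, challenged mutant 2 and challenged wild type 1, have the lowest medians. Challenged wild type 2 and challenged mutant 1, also high in pancreas genes, lie at -0.01 and 0.08.

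The set as a whole differed slightly from mouse to mouse. The median difference of the members from the mean of unchallenged wild types was 0.08, -0.15, 0.06 and 0.15 in challenged mutants, against 0.00, -0.02 and -0.06 in unchallenged mutants. It was -0.14, -0.01, -0.04 and 0.05 in challenged wild types, against 0.00, -0.06, 0.00 and 0.04 in unchallenged wild types. Challenged mice spread to both sides of the unchallenged ones. The arrays at -0.15 and -0.14 were those with the highest pancreas gene level, and the array at 0.15 was the dimmest. Challenged wild type 2 and challenged mutant 1, also high in pancreas genes (11.59 and 10.03), lay at -0.01 and 0.08. The cause of these differences was not tested. With the pancreas level as a covariate the median change in wild types was 0.06, and without challenged mutant 4 the median change in mutants was -0.01.

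After the group means were removed, members moved together. As a description over the 15 arrays, which share depth and tissue make-up within each array, the mean correlation between pairs of members was 0.24, against 0.003 between all probes and 0.11 between 70 mitochondrial ribosomal proteins. Quantile normalization holds the mean over all probes near 0, so that value could hardly differ. Equally bright probes were not compared. Pairs made of a large- and a small-subunit protein averaged 0.25. The residual of a member correlated positively with the mean of the other members in 54 of 58 cases and above 0.5 in 34, with a median of 0.55. Rps4x lay highest at 0.98, and Rpl27a lowest at -0.64, next to Rpl22l1 (-0.28), Rpl36a (-0.15) and Rpl7l1 (-0.04). Within groups the median SD of a member was 0.17, against 0.25 for all probes, which were not matched for brightness.

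Because arrays differed in brightness, each member was also set against the median member of its own array, on background-corrected signals with no scaling between arrays. In both genotypes every challenged mouse stood above every unchallenged mouse for Rpl19, Rpl23, Rpl38, Rps26 and Rps9, and below for Rpl27a, Rpl35, Rpl4, Rps15a and Rps6. For Rpl23, the brightest member, the normalized log2 changes were only -0.06 ± 0.10 in mutants and 0.04 ± 0.09 in wild types. Its raw signal was 44739 to 48659 in challenged and 41630 to 46988 in unchallenged wild types. The mean raw signal of the members was 8278 in challenged and 9993 in unchallenged wild types. Whether these positions follow a probe's signal level was not tested. In wild types 5 members lay wholly above (8.62%, against 8.75% of all probes) and 6 wholly below (10.3%, against 22.2%). In mutants 6 lay above (10.3%, against 8.16%) and 16 below (27.6%, against 35.5%). These shares were near or under those of all probes, so the counts are not a result about the members. Rps26 stood at 0.87 ± 0.19 log2 units above the median member in challenged mutants, against 0.07 ± 0.19 in unchallenged mutants, and at 0.73 ± 0.06 in challenged wild types, against 0.12 ± 0.12 in unchallenged wild types (SD). Rps15a stood at -5.97 ± 0.25 in challenged mutants, against -5.05 ± 0.14 in unchallenged mutants, and at -5.90 ± 0.18 in challenged wild types, against -5.01 ± 0.20 in unchallenged wild types.

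Different probes of a gene did not always go together. Of 11 members with several tested probes, 8 had the same sign on all of them in each challenge comparison, and no member was called on all its probes. A dimmer probe alone was called in 5 of these 11 genes in mutants and 2 in wild types, where 30.5% and 22.5% of all probes were called. Counts this small cannot be told from those shares and are not a result about the members. The genes were singled out after their values were seen. The dimmer probe of Rps3, a small-subunit protein that also repairs DNA, changed by 0.85 ± 0.16 in mutants and 0.55 ± 0.15 in wild types (limma adjusted p = 0.00208 and 0.0181), while its brightest probe had 0.35 ± 0.16 and 0.26 ± 0.15 and passed in neither. For Rps24 the dimmer probe changed by 0.46 ± 0.14 in mutants (adjusted p = 0.0274). For Rplp0 it passed as higher in mutants (adjusted p = 0.0153) but was detected on 4 of 4 challenged and 1 of 3 unchallenged mutant arrays, so the size of its change is not given. For Rpl21 it passed as lower in both genotypes (adjusted p = 0.0209 in mutants and 0.0153 in wild types), with detection on 2 of 4 challenged mutants and 3 of 4 challenged wild types and on every unchallenged array. For Rpl23 the dimmest of 3, detected on 3 of 4 challenged mutants, changed by -0.99 ± 0.33 in mutants (adjusted p = 0.0375). Among the calls above, the dimmer probe of Rpl38 had a log2 change of 0.35 ± 0.15 in mutants and that of Rps9 one of 0.17 ± 0.14, neither past the threshold. The dimmer probe of Rpl7l1 had the opposite sign in mutants (-0.27 ± 0.28, adjusted p = 0.461), and that of Rpl27a had -0.12 ± 0.21 in wild types (adjusted p = 0.701), with detection on 1 of 4 challenged and 3 of 4 unchallenged arrays. Which probe reports the gene was not tested.

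Other genes of the ribosome's making and use were set beside the members. Of 27 genes of ribosome assembly in the nucleolus 20 were tested, and 9 rose and 0 fell with challenge in mutants (13.5% and 17% of all probes), while 4 rose and 1 fell in wild types (9.8% and 12.7% of all probes). Those that rose in both genotypes were Tcof1 and Ubtf, which drive transcription of ribosomal RNA genes, Fbl, which methylates ribosomal RNA, and Polr1c, a polymerase subunit. Tcof1 changed by 0.99 ± 0.13 in mutants and 0.44 ± 0.12 in wild types (limma adjusted p = 0.000230 and 0.0185), Ubtf by 0.74 ± 0.15 and 0.53 ± 0.14, Fbl by 0.88 ± 0.22 and 0.69 ± 0.21, and Polr1c by 0.52 ± 0.13 and 0.35 ± 0.12. Pes1, of the complex that matures the large subunit, fell in wild types (-0.46 ± 0.13). The median of the list was 0.22 in mutants and 0.20 in wild types, beside 0.09 and -0.04 for the ribosomal proteins. The split of all calls between higher and lower depended on the scaling. Only quantile normalization was used for this list and those below.

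Of 76 mitochondrial ribosomal proteins, which build the separate ribosome of that organelle, 70 were tested. In mutants 19 rose and 1 fell (13.5% and 17% of all probes), and in wild types 11 rose and 1 fell (9.8% and 12.7% of all probes). The medians were 0.15 and 0.10, against -0.02 and -0.01 for all probes. Whether the excess of higher calls holds under other scalings was not tested. Mrps18c changed by 0.70 ± 0.12 in mutants and 0.68 ± 0.11 in wild types (limma adjusted p = 0.00139 and 0.00135), Mrpl20 by 0.71 ± 0.11 and 0.53 ± 0.10, and Mrpl2 by 0.79 ± 0.14 and 0.55 ± 0.13. Mrpl35 fell in mutants (-0.66 ± 0.16) and Mrpl36 in wild types (-0.63 ± 0.19), both named after their values were seen.

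Of 22 other translation proteins, many with the same kind of pyrimidine start, 17 were tested, with 3 higher and 2 lower in mutants (13.5% and 17% of all probes) and 1 higher and 1 lower in wild types (9.8% and 12.7% of all probes). These shares of the list were near or under those of all probes. Fau, whose product is cut to release a further small-subunit protein, had 12.79, 12.57, 12.87 and 13.33 in challenged mutants, against 12.37, 12.20 and 12.32 in unchallenged mutants. It had 12.75, 12.60, 12.77 and 12.74 in challenged wild types, against 12.45, 12.19, 12.20 and 12.30 in unchallenged wild types. No challenged mouse overlapped an unchallenged one, at 0.59 ± 0.15 and 0.43 ± 0.14 (limma adjusted p = 0.0104 and 0.0417). Eif3f, a subunit of an initiation factor, fell in both (-0.34 ± 0.12 and -0.62 ± 0.11), while the elongation factor subunit Eef1b2 and Eif3k rose in mutants (0.48 ± 0.16 and 0.46 ± 0.13) and Hnrnpa1, a splicing protein, fell there (-0.99 ± 0.33).

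Of 17 regulators of ribosome number and S6 phosphorylation 11 were tested, with 2 higher and 2 lower in mutants (13.5% and 17% of all probes) and 1 higher and 2 lower in wild types (9.8% and 12.7% of all probes). These counts too are near the share over all probes. Rheb, the small GTPase that activates mTOR, fell in both (-0.62 ± 0.15 and -0.49 ± 0.14; limma adjusted p = 0.00745 and 0.0207). Tsc2, which switches Rheb off, fell in mutants (-0.33 ± 0.11), and Eif4ebp1, which holds back cap-dependent initiation, fell in wild types (-0.79 ± 0.23). Eif2ak2, the interferon-induced kinase PKR, and Eif2ak3, the kinase PERK, both of which slow initiation, rose in mutants (0.56 ± 0.14 and 0.53 ± 0.15). Rps6ka3, an S6 kinase of the RSK family, rose in wild types (0.61 ± 0.20). None of the 11 passed in either genotype comparison or in the interaction. A call in a single genotype therefore does not show a difference between the genotypes. The same held for the assembly, mitochondrial and other translation lists.

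**Figure D5:**
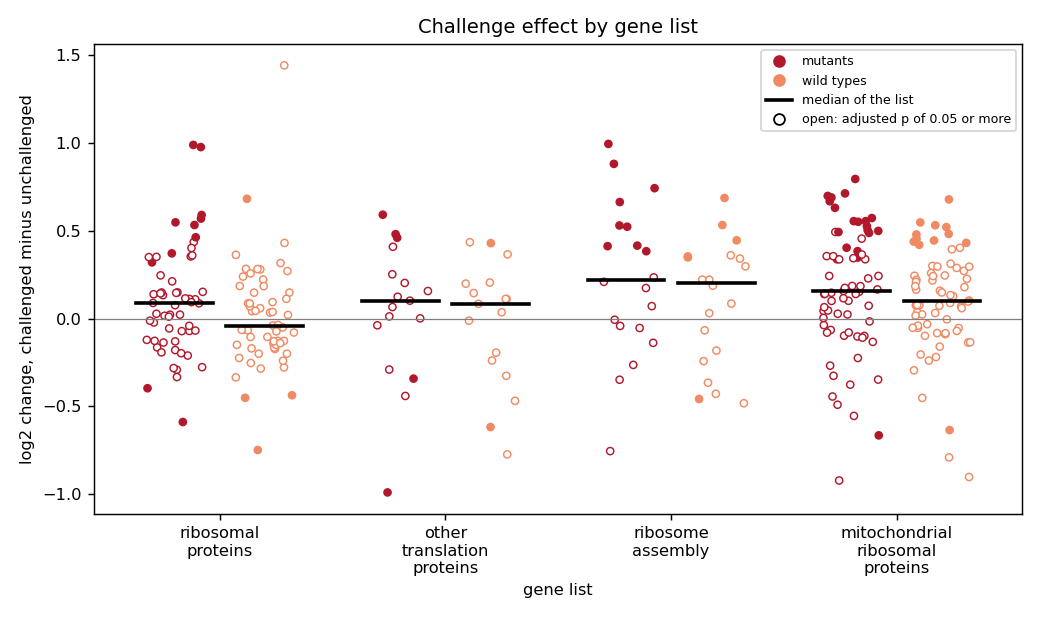
Log2 change with challenge for each tested gene of 4 lists in mutants and wild types, filled where the adjusted p was under 0.05, with a bar at the list's median; horizontal scatter has no meaning. The medians of ribosome assembly genes lie at 0.22 and 0.20 and those of ribosomal proteins at 0.09 and -0.04, with filled points on both sides of 0 for ribosomal proteins.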

How the data were processed

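Whole-lung RNA of 15 mice was hybridised to Illumina beadchips. Trizol extraction, a column clean-up and conversion to biotinylated cRNA are stated in the labels' protocols, and GenomeStudio 2011.1 in the submitters' processing notes. Per the file headers, the deposited table pairs an intensity with a detection p-value, per probe and array. The authors' series matrix holds further intensity values with no normalization stated in those sources, used as an alternative (values floored at 16 before log2).

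Intensities were background-corrected and quantile-normalized by neqc (limma 3.58.1, R 4.3.3; offset 16; negative controls inferred from detection p) and taken to log2. A mean for each of 4 groups was fitted to all 15 arrays (lmFit, eBayes; 11 residual degrees of freedom; two-sided), with Benjamini-Hochberg adjustment over all tested probes. SE is that of the fit. Replicates are separate mice; their number limits the precision. The fit was tested on simulated data with independent noise for each probe, which does not cover effects shared across an array.

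Symbols came from the platform annotation, with 23978 probes naming 1 gene and 1719 none; gene ids of 23962 probes were found in RefSeq and 0 were renamed. Genes named are, for each comparison, up to 6 called members per direction with the smallest p; the 5 smallest interaction p-values; the 3 highest and lowest levels, and largest and smallest SDs; listed stalk proteins and paralog pairs; and up to 4 called genes of each other list in each comparison. The members, lists and tests were chosen with earlier results of these data known.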

Additional observations from a re-analysis of the deposited data

Results flagged for a closer look

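In 4 of 96 groups of 4 arrays examined, a member had an array far from the others of its group, where chance gives about 1 in 20. Rpl5 was 13.05 in challenged wild type 1, against 13.53 to 13.57 in the other challenged wild types, and this array also had the second highest pancreas gene level. Rpl22 was 10.8 in challenged wild type 3, against 10.56 to 10.59 in the others. Rps27 was 13.75 in challenged wild type 4, against 13.58 to 13.61. Rpl41 was 15.07 in unchallenged wild type 3, against 15.16 in each of the others. Because the others hold the same value, any difference would have been flagged there, however small. No named member, of 31, moved in opposite directions in every mutant and every wild type.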

How the results depend on the processing

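In neither genotype comparison nor the interaction was a member called under any alternative (33, 33 and 32 tried). The call of Rps15a in wild types held under all 33. Challenge counts moved. In mutants, where 11 members passed, median scaling gave 19, median scaling over all probes 27 (2 higher, 25 lower), only the groups compared 4, mean signal as a covariate 1, and leaving out the dimmest array of each challenge state 6; leaving out an array gave 4 to 13. In wild types, where 4 passed, median scaling gave 9, cyclic loess 8, array weights 8, median scaling over all probes 9 (1 higher, 8 lower) and mean signal as a covariate 1; leaving out an array gave 2 to 6. Of all calls in mutants 44.3% were higher, against 63.8% with median scaling and 6.81% with median scaling over all probes; in wild types 43.5%, against 52.3% and 10.8%. After group means were removed, arrays of the same replicate number in different groups correlated at -0.11 to 0.499 (9 of 21 pairs above 0.1). Arrays of different numbers were not compared, so whether the numbers pair the mice cannot be told. With the replicate block 6 members passed in mutants and 3 in wild types.

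Under median scaling over all probes the median of all probes was -0.54 in mutants and -0.31 in wild types, against -0.02 and -0.01. It gave a member median of -0.41 in mutants, -0.27 in wild types, -0.13 between challenged mutants and challenged wild types and -0.15 in the interaction, and it turned Rpl30 (-0.37), Rpl7a (-0.12) and Rpl7l1 (-0.41) in mutants. Relative to the median of all probes, the member median in mutants was 0.09 to 0.19 in 7 of 7 scalings, and in wild types 3 were positive and 4 negative. The member median in mutants was 0.25 with median scaling, 0.19 with cyclic loess, -0.054 with mean signal as a covariate, -0.0068 without the dimmest arrays, and -0.0068 to 0.16 leaving out an array. In wild types it was 0.10 with median scaling, 0.064 with cyclic loess, 0.063 with the pancreas level as a covariate, and -0.09 to -0.0055 leaving out an array. Mean signal as a covariate also turned Rpl12 in mutants (-0.020). The cause was not tested. Covariates, median scaling over all probes and the sets of arrays left out together were chosen after seeing the data.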
